A study of Homo sapiens with 5 samples.

Results

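The imprinted genes of 15q11 are a cluster on the long arm of human chromosome 15. Their copies can differ in activity, and at some sites in DNA methylation, according to the parent they came from. The 6 genes SNRPN, NDN, MAGEL2, MKRN3, UBE3A and ATP10A were followed here through every window of 1000 bases that the table assigned to one of them by symbol, or that lay within 5000 bases of one of them. That gave 111 of the 288391 windows measured, of which 44 were found by symbol, 102 by position and 35 by both. ATP10A held 48 windows, SNRPN 28, MKRN3 13, MAGEL2 9, UBE3A 8 and NDN 5. From the centromere outwards, the table places MKRN3 (ENSG00000179455) at chr15:23565674-23630075 on the plus strand, MAGEL2 (ENSG00000254585) at chr15:23643549-23647867 and NDN (ENSG00000182636) at chr15:23685400-23687305 on the minus strand, SNRPN (ENSG00000128739) at chr15:24823637-24978723 on the plus strand, and UBE3A (ENSG00000114062) at chr15:25333728-25439051 and ATP10A (ENSG00000206190) at chr15:25677273-25865184 on the minus strand, all on GRCh38. CpG islands held 11 of the windows (9.91%, against 17.3% of all windows), and 90 lay outside islands, shores and shelves.

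The windows came from reduced representation bisulfite sequencing (RRBS), which cuts DNA at CpG-rich sites, converts unmethylated cytosines and reads the share left unconverted, the β-value. The cells were the human induced pluripotent stem cell (iPSC) line 201B7 (HPS0063), labelled as genotype WT and grown without feeder cells. They were kept for 48 h in 0.1% DMSO as the vehicle control, 1 nM etoposide (a topoisomerase II poison), 1 µM propyl gallate (an antioxidant), 1 µM theophylline (a methylxanthine of tea) or 10 nM 5-aza-dc (5-aza-2'-deoxycytidine, which traps DNA methyltransferases). Each condition had 1 library from 1 cell line, all 4 comparisons share the same vehicle control, and no value can be set against a spread between replicates.

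Imprinting marks are laid down in the germ line and kept through later cell divisions. In this cluster the CpG island at the shared start of SNURF and SNRPN is part of the imprinting centre, which is methylated on the maternal copy and free of methylation on the paternal copy, so that a β-value between the extremes is what one methylated and one unmethylated copy would give. SNRPN, NDN, MAGEL2 and MKRN3 are expressed from the paternal copy, UBE3A is expressed from the maternal copy in neurons, and the imprinting of ATP10A varies between people. Loss of the paternal or the maternal contribution causes Prader-Willi or Angelman syndrome.

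The starts of these genes differ in CpG content. The following RefSeq promoters, on GRCh38.p14, run 5′ to 3′ on the strand of the gene from 250 bases before to 50 bases from the transcription start, 300 bases each, with every CpG in capitals. They were chosen because they lie in windows whose levels span the whole scale. The SNRPN promoter shared with SNURF is chr15:24954737-24955036 on the plus strand, and a downstream SNRPN start is covered by chr15:24956050-24956349 on the plus strand. The MAGEL2 promoter is chr15:23647818-23648117 on the minus strand, that of MKRN3 is chr15:23565424-23565723 on the plus strand, and that of UBE3A is chr15:25438975-25439274 on the minus strand.
SNRPN, shared start: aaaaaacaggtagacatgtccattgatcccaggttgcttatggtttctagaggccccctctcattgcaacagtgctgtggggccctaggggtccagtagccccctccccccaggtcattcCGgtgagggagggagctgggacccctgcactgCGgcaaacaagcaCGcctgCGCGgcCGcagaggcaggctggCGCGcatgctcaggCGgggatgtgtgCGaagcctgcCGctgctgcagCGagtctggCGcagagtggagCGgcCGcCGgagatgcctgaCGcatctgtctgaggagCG
SNRPN, downstream start: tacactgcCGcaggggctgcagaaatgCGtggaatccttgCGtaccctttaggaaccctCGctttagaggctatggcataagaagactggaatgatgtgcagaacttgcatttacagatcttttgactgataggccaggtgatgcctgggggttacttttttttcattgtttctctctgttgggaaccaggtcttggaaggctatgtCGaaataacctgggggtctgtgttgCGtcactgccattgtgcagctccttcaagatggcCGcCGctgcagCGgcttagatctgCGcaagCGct
MAGEL2: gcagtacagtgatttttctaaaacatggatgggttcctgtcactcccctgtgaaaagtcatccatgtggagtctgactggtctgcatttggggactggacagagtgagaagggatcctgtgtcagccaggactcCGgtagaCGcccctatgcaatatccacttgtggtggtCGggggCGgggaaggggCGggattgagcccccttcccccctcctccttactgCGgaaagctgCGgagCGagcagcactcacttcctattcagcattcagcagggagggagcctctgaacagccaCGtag
MKRN3: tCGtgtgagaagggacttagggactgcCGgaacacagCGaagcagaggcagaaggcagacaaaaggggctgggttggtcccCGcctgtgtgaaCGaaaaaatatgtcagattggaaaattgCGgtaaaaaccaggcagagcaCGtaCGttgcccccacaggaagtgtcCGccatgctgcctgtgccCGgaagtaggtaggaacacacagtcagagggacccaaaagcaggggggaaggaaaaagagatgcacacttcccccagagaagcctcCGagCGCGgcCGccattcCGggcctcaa
UBE3A: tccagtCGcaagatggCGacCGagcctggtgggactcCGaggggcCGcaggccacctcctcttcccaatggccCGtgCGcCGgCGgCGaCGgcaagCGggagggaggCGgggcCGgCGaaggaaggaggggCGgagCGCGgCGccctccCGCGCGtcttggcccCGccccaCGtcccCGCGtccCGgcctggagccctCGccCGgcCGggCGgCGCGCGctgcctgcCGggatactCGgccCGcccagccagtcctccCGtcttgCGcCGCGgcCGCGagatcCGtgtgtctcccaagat

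These promoters held 18 CpGs at the shared SNRPN start, 11 at the downstream SNRPN start, 9 in MAGEL2, 15 in MKRN3 and 44 in UBE3A, against a median of 14 over the 34943 RefSeq promoters of this length. The NDN promoter held 35 and that of ATP10A 37. So UBE3A, ATP10A and NDN had many CpGs and MAGEL2 fewer than the median promoter. The letters CCGG, cut by MspI, the enzyme commonly used for RRBS, occurred 2 times at the shared SNRPN start, 1 time in MAGEL2, 3 times in MKRN3, 6 times in UBE3A and not in the 300 bases printed for the downstream SNRPN start. Of all promoters 63.1% held CCGG on either strand. The letters AAGATGGC, the core of the motif bound by YY1, occurred 1 time at the downstream SNRPN start and 1 time in UBE3A, in the 2.89% of promoters that held them on either strand. Neither motif contains the other, and such a match describes the letters only.

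Over the whole table, the median window had 398 to 499 calls per library, and the libraries held 188844850 to 228919184 calls in the shared windows. A call is 1 cytosine read, several can come from 1 read or its PCR copies, and the 95% intervals below (Wilson for a level, Newcombe for a difference) therefore cover counting error only. Of the pluripotency genes, 9 had a window that holds the table's start. In all 5 libraries, 4 of the 9 (LIN28A, DNMT3B, DPPA4 and SALL4) were below 10%, and 5 were not. The start the table gives for POU5F1 lay between 83.2 and 87.9%, and that for LIN28B between 85.9 and 90.7%. A window at the RefSeq start of LIN28B lay between 0.653 and 1.47%. DPPA2 lay between 73.7 and 81.6%, ZFP42 between 37.2 and 60.9% and L1TD1 between 10.3 and 16%. Their windows also hold a RefSeq start. The starts of NANOG, SOX2 and TDGF1 had no window. The 3 fibroblast genes with a measured start were also below 10% in all libraries, and no start of the 4 blood genes was measured, so the label of a pluripotent cell could be checked only in part. The windows of the 6 genes had a median of 452 calls in the vehicle control, and 8 of them had fewer than 30 calls in at least 1 library.

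Most windows of the cluster were methylated, and the few that were not were grouped by gene. In the vehicle control 84 of the 111 windows (75.7%) were above 80%, against 79.6% of all windows, and 5 were below 10%. The mean β-value in the vehicle control was 91.6% over the windows of MKRN3, 84.4% over NDN, 80.7% over ATP10A, 80.2% over SNRPN, 76.1% over MAGEL2 and 58% over UBE3A. All windows of MKRN3 were thus methylated, with none under 84.1% in that library. Most of them lie outside the RefSeq extent of MKRN3, 23565674 to 23568044. UBE3A was divided between 3 windows at its start below 10%, of which 1 had 13 to 25 calls, and 5 windows above 80%. ATP10A and SNRPN, whose means hardly differed, had a methylated body in common and very different starts.

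**Figure D1:**
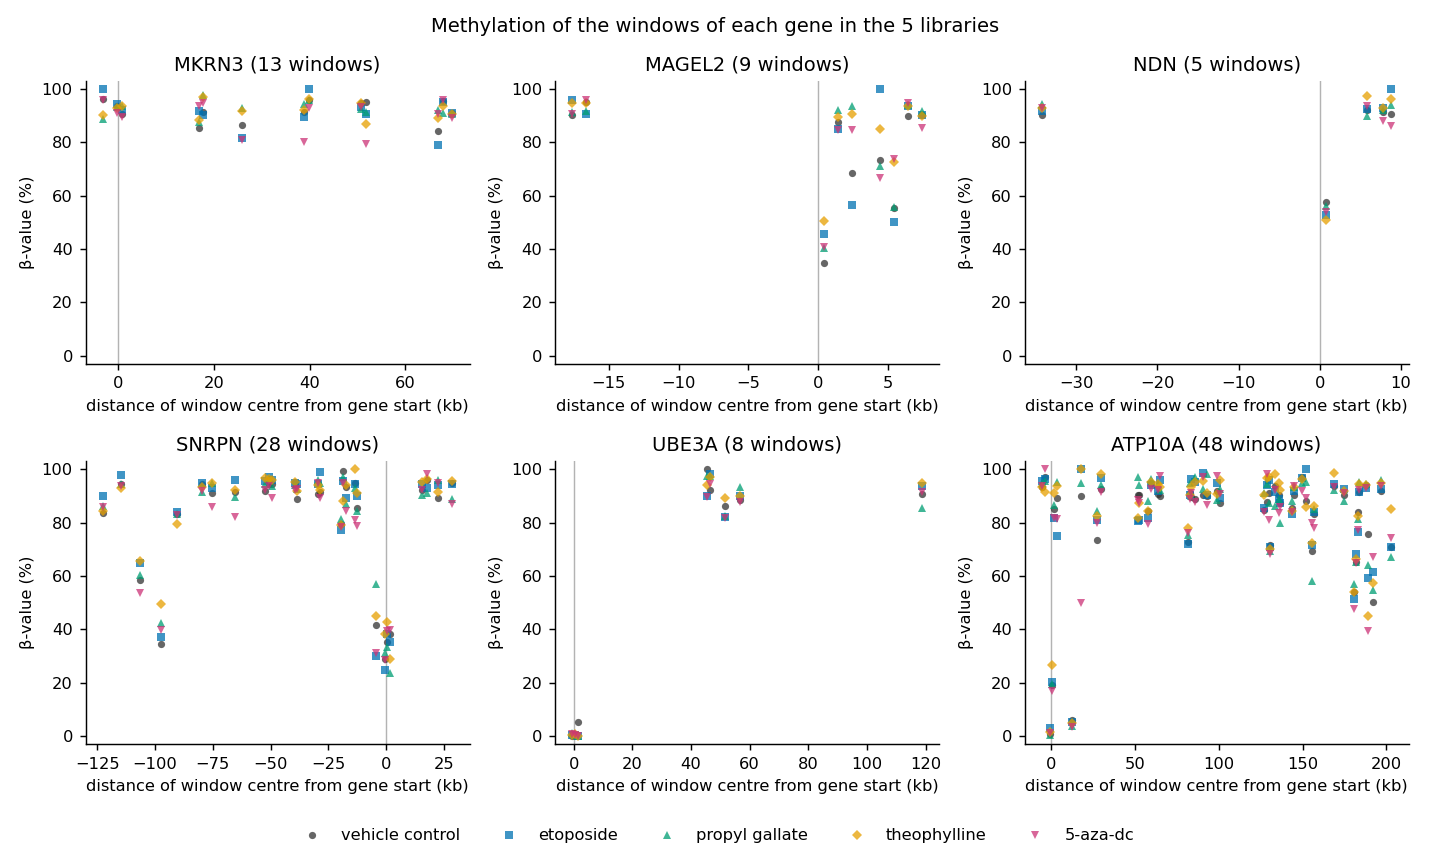
β-value (%) of each of the 111 windows against the distance of its centre from the gene's start (kb, positive into the gene), with 1 panel per gene and 1 symbol per library. The start of UBE3A and of ATP10A lies near 0, the SNRPN island between 23.7 and 42.6%, and every window of MKRN3 is methylated. For ATP10A the RefSeq start at 25863327 was used, and for SNRPN the start shared with SNURF at 24954987.

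Intermediate methylation was more frequent in the cluster than in the table. A β-value of 30 to 70% in the vehicle control was found in 13 of 111 windows (11.7%), in 4.33% of all windows, in 2.22% of the 270 windows of 9 neighbouring genes of 15q11 to 15q13 that are mostly not imprinted, and in 7.37% of the 95 windows of other transcripts of the imprinted interval. The 339 windows of imprinted genes on other chromosomes had 12.1%, a share close to that of the cluster. Of the 13, 5 belonged to SNRPN, 4 to ATP10A, 3 to MAGEL2 and 1 to NDN, and MKRN3 and UBE3A had none. In all 5 libraries at once, 8 windows (7.21%) stayed between 30 and 70%, against 2.53% of all windows. These shares are descriptions, since neighbouring windows of a gene are not independent of each other.

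**Figure D2:**
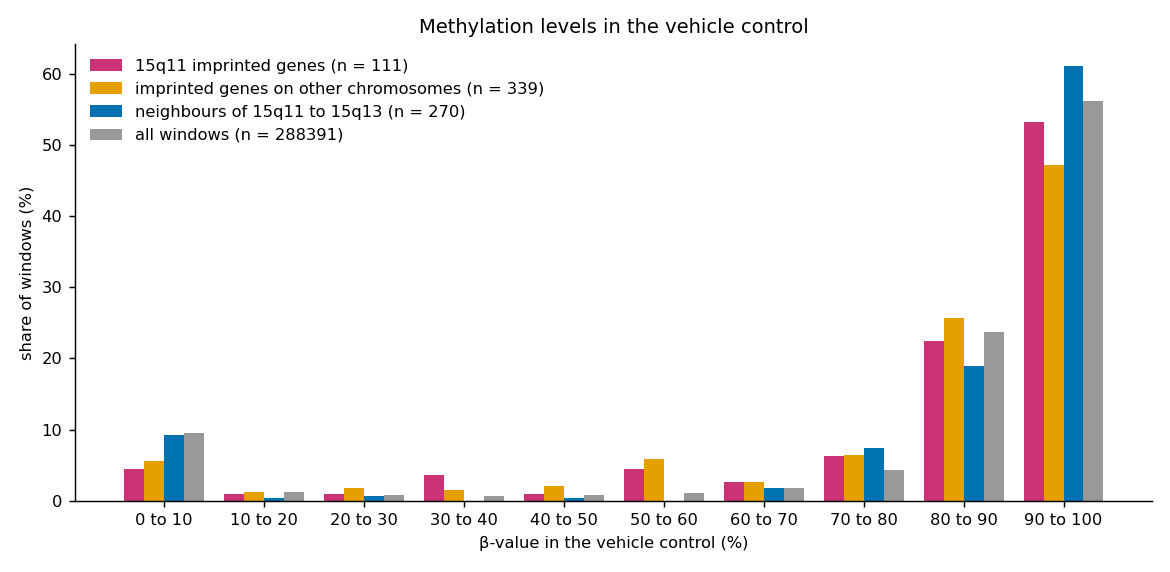
Share of windows (%, vertical axis) in each 10-point class of vehicle control β-value (%, horizontal axis) for the 111 windows of the 15q11 genes, for the 2 comparison lists and for all 288391 windows. The 15q11 genes and the imprinted genes of other chromosomes have taller bars between 30 and 70% than the neighbours and the whole table.

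SNRPN encodes SmN, a core protein of the splicing machinery, and its island is part of the imprinting centre. The island was covered by 3 adjacent windows, all annotated as CpG island. The window with the shared start, chr15:24954001-24955000, had β-values of 28.9% with vehicle (598 of 2072 calls, 27 to 30.8%), 24.6% with etoposide, 31% with propyl gallate, 38.4% with theophylline and 28.4% with 5-aza-dc. Theophylline was highest there, 9.51 percentage points above the vehicle control (6.2 to 12.9, adjusted p = 1.75e-06, Fisher's exact test, adjusted over all 288391 windows by the Benjamini-Hochberg method). This was below the 10 points required here for a window to be called. The other libraries lay within 4.23 points of the vehicle control. The next window, chr15:24955001-24956000, read 35.4% with vehicle (215 of 608 calls), 38.4% with etoposide, 33.3% with propyl gallate, 42.6% with theophylline and 39.5% with 5-aza-dc. Theophylline was again highest, but its difference of 7.22 points had an adjusted p of 0.0702 in Fisher's exact test. In the last window of the island, chr15:24956001-24957000, which holds the downstream start and its AAGATGGC, the β-value was 38.2% with vehicle (139 of 364 calls), 35.2% with etoposide, 23.7% with propyl gallate, 28.7% with theophylline and 39.7% with 5-aza-dc. Here theophylline was below the vehicle control and propyl gallate was lowest.

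Averaged over the 3 island windows, the β-value was 34.1% with vehicle, 32.8% with etoposide, 29.4% with propyl gallate, 36.5% with theophylline and 35.9% with 5-aza-dc. No library reached either extreme, and every mean lay nearer the unmethylated one than the methylated one. The cause was not tested. The difference from the vehicle control was -1.37 points after etoposide (-4.56 to 1.81), 1.74 points after 5-aza-dc (-1.45 to 4.92) and 2.41 after theophylline (-0.702 to 5.52), and it was -4.78 after propyl gallate (-8.07 to -1.49). Outside the island the 25 other SNRPN windows averaged 85.8% in the vehicle control and were 2.55 points lower after 5-aza-dc (-3.85 to -1.25). The propyl gallate value of the island came mainly from its last window, the one with 210 calls in that library.

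A window just before the island varied more between libraries than any other window of the cluster that had at least 100 calls throughout. In chr15:24950001-24951000, a CpG shelf that the table places 1 to 5 kb before SNURF, the β-value was 41.5% with vehicle (226 of 545 calls, 37.4 to 45.6%), 29.9% with etoposide (85 of 283), 56.8% with propyl gallate (176 of 309), 45% with theophylline (233 of 518) and 31.1% with 5-aza-dc (137 of 440). Propyl gallate was highest and etoposide and 5-aza-dc were lowest, and the interval of propyl gallate met no other, while those of etoposide and 5-aza-dc met only each other. Comparing all 10 pairs of libraries, which was added after the values had been seen, this window was called in 7 pairs, a call being an adjusted p under 0.01 in Fisher's exact test and a difference of at least 10 points. Of all windows, 0.0354% were called in 7 pairs or more, as was 1 of the 111 windows (0.901%). Of those with a 5-library mean of 30 to 70%, 0.527% were in the whole table and 1 of 13 (7.69%) in the cluster. The pair count restates the spread between the same 5 libraries, so these shares do not test that spread. No other window of the 6 genes reached more than 4 pairs. In at least 1 pair, 26 of the 111 windows (23.4%) were called, against 15% of all windows.

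Far upstream, along the longer SNRPN transcripts, 2 windows with no gene symbol in the table were also intermediate in every library, and they were picked out after their values had been seen. The β-value of chr15:24848001-24849000 was 58.3% with vehicle, 64.9% with etoposide, 60.2% with propyl gallate, 65.6% with theophylline and 53.5% with 5-aza-dc. For chr15:24857001-24858000 it was 34.6% with vehicle, 37.1% with etoposide, 42.2% with propyl gallate, 49.4% with theophylline and 39.6% with 5-aza-dc. The table annotates chr15:24848001-24849000 as Promoter, and a RefSeq SNRPN start at 24856571 lies just before chr15:24857001-24858000. Theophylline was highest in both windows, and the vehicle control was lowest in chr15:24857001-24858000. Most of the upstream stretch between them and the island was highly methylated: in chr15:24936001-24937000 the β-value was 99.2% with vehicle (122 of 123 calls), 95.5% with etoposide, 97% with propyl gallate, 88.2% with theophylline and 94.7% with 5-aza-dc.

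**Figure D3:**
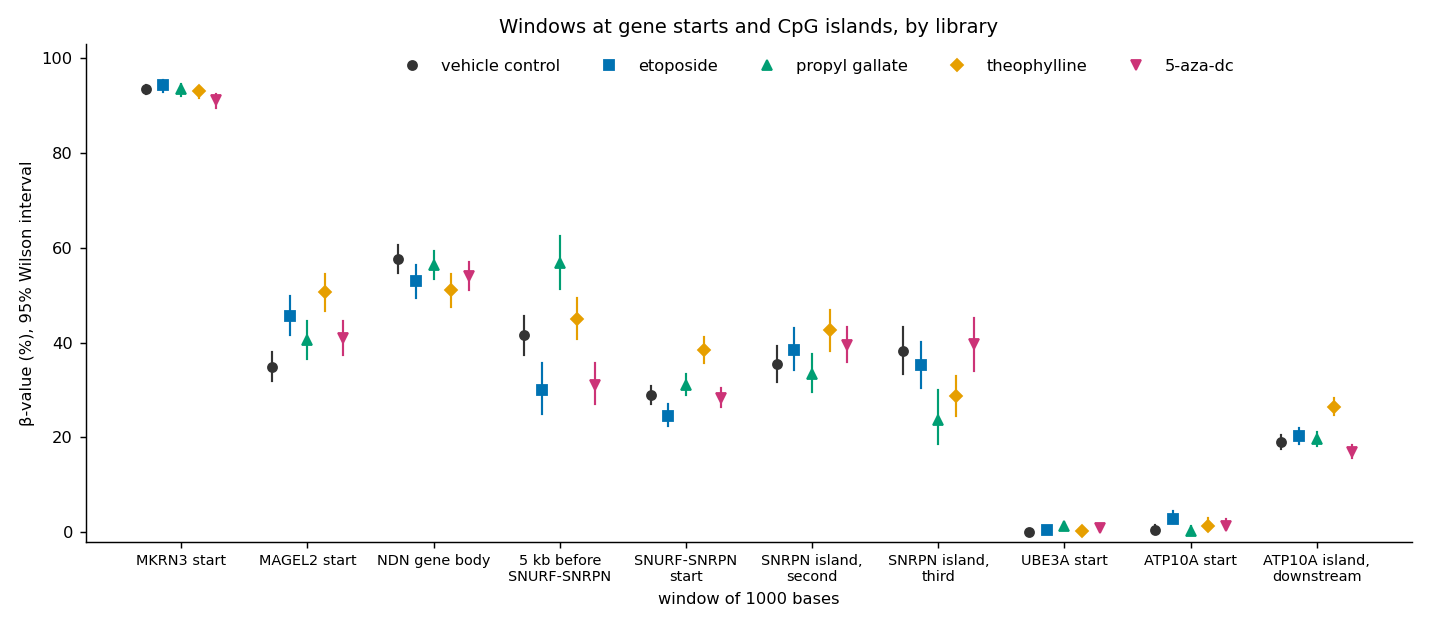
β-value (%) with its 95% Wilson interval in each of the 5 libraries for the windows at gene starts and CpG islands and for the shelf window before SNRPN. Points near 93% (MKRN3) and near 0 (UBE3A, ATP10A start) lie close together, while those of the shelf window run from 29.9 to 56.8%.

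NDN encodes necdin, a MAGE-family protein of postmitotic neurons. Its only window inside the gene, chr15:23686001-23687000, is a CpG island that the table annotates as 3UTR. The β-value there was 57.6% with vehicle (616 of 1069 calls, 54.6 to 60.6%), 52.9% with etoposide, 56.3% with propyl gallate, 51% with theophylline and 54% with 5-aza-dc. The vehicle control was highest, and the largest difference, -6.63 points after theophylline, had an adjusted p of 0.0326 in Fisher's exact test and was not called. The 4 flanking windows of NDN were above 80% in the vehicle control. The promoter itself had no window.

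MAGEL2, a MAGE-family partner of ubiquitin ligases in endosomal sorting, was intermediate at its start. In chr15:23647001-23648000, which holds the transcription start at 23647867 and part of the promoter printed above, the β-value was 34.9% with vehicle (306 of 878 calls, 31.8 to 38.1%), 45.6% with etoposide (254 of 556), 40.5% with propyl gallate (228 of 564), 50.6% with theophylline (312 of 617) and 40.9% with 5-aza-dc (283 of 692). The vehicle control was the lowest of the 5 and theophylline the highest. The table classes this window outside CpG islands, shores and shelves. Its difference from the vehicle control was 15.7 points after theophylline (10.6 to 20.7, adjusted p = 2.11e-07, Fisher's exact test) and 10.8 after etoposide (5.63 to 16, adjusted p = 0.00099, Fisher's exact test). The neighbouring window inside the gene, chr15:23646001-23647000, was methylated at 87.7% with vehicle, 84.9% with etoposide, 92% with propyl gallate, 89.4% with theophylline and 84.6% with 5-aza-dc. Farther into and past the gene, 3 windows had few calls: chr15:23645001-23646000 went from 56.4% after etoposide to 93.6% after propyl gallate on 18 to 51 calls per library.

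Over the 9 windows of MAGEL2 the mean difference from the vehicle control was 8.44 points after theophylline (4.97 to 11.9), 4.17 after propyl gallate (0.998 to 7.34), 3.58 after 5-aza-dc (-0.577 to 7.74) and 2.56 after etoposide (-1.29 to 6.41). MAGEL2 had the largest such mean of the 6 genes after theophylline. With only the 6 windows that had at least 30 calls in every library, the theophylline value was 4.2 points.

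MKRN3 encodes a RING-finger ubiquitin ligase known as a brake on puberty. Its start window, chr15:23565001-23566000, a CpG island, read 93.5% with vehicle (2257 of 2414 calls, 92.4 to 94.4%), 94.3% with etoposide, 93.4% with propyl gallate, 93% with theophylline and 91.1% with 5-aza-dc. All 5 libraries were close together and nearly fully methylated, the opposite of the UBE3A island. The table extends MKRN3 to position 23630075, far beyond its RefSeq end at 23568044, and the 2 called MKRN3 windows lie in that extension. There, chr15:23617001-23618000 read 95.1% with vehicle (289 of 304 calls), 90.8% with etoposide, 91.2% with propyl gallate, 87% with theophylline and 79.2% with 5-aza-dc (176 of 222), and chr15:23604001-23605000 read 91.2, 89.5, 94.5, 92 and 80.1% in the same order. 5-aza-dc was lowest in both.

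UBE3A encodes an E3 ubiquitin ligase that is lost in Angelman syndrome. The window with its main starts, chr15:25439001-25440000, read 0% with vehicle (0 of 1092 calls, which allows up to 0.275%), 0.401% with etoposide, 1.27% with propyl gallate, 0.339% with theophylline and 0.788% with 5-aza-dc. The adjacent island window, chr15:25438001-25439000, read 0.391% with vehicle (18 of 4600 calls), 0.336% with etoposide, 0.309% with propyl gallate, 0.873% with theophylline and 0.339% with 5-aza-dc. Every library was thus at or below 1.27% over the CpG-dense promoter printed above. None of the 8 windows of UBE3A was called against the vehicle control in any comparison, where 2.22 to 3.64% of all windows were called. At such shares 8 windows are too few to show that the gene was stable. In the body, 4 windows lay between 81.7 and 100% in all libraries. Past the end of the gene, chr15:25320001-25321000, which the table assigns to UBE3A by symbol, lay between 85.4 and 94.7%.

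ATP10A encodes a phospholipid flippase of the plasma membrane. The window with its RefSeq start at 25863327, chr15:25863001-25864000, a CpG island, read 0.555% with vehicle (4 of 721 calls), 2.79% with etoposide (19 of 669), 0.208% with propyl gallate, 1.34% with theophylline and 1.25% with 5-aza-dc. The next island window into the gene, chr15:25862001-25863000, was partly methylated in every library, at 19% with vehicle (555 of 2917 calls, 17.6 to 20.5%), 20.2% with etoposide, 19.6% with propyl gallate, 26.5% with theophylline and 16.9% with 5-aza-dc. Theophylline was again highest, by 7.5 points over the vehicle control (5.2 to 9.82, adjusted p = 3.11e-08, Fisher's exact test), and the other 4 libraries lay between 16.9 and 20.2%. The difference was under 10 points, so the window was not called. Just upstream of the start that the table gives, 25865184, the windows were methylated. There chr15:25866001-25867000 lay between 91.5 and 100%, and the island window chr15:25868001-25869000 between 93.2 and 95.5%.

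Several windows near the 3′ end of ATP10A were intermediate. In chr15:25681001-25682000, singled out after its values had been seen, the 5 libraries lay between 64.8 and 68.3%, and in chr15:25682001-25683000 between 47.7 and 57%. Farther on, past the end of the gene in the table but inside its RefSeq extent, chr15:25674001-25675000 read 75.7% with vehicle (87 of 115 calls, 67.1 to 82.6%), 59.3% with etoposide (57 of 96), 64% with propyl gallate (67 of 105), 44.8% with theophylline (26 of 58) and 39.3% with 5-aza-dc (20 of 50). The vehicle control was highest and all 4 chemicals were lower, on few calls. In chr15:25671001-25672000, just past the RefSeq end at 25672237, the order was turned around, with 50.3% with vehicle (170 of 338 calls), 61.4% with etoposide, 54.9% with propyl gallate, 57.3% with theophylline and 67.2% with 5-aza-dc (225 of 335). Here the vehicle control was lowest and 5-aza-dc highest.

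Each of the 4 chemicals was set against the vehicle control to ask whether methylation of the cluster moved, and the share of windows called is set beside that of the whole table. Fisher's exact test compares 2 libraries, not 2 conditions. After etoposide 1 of the 111 windows was called (0.901%), with 2.32% of all windows called. It was the MAGEL2 start, which was higher, where 1.36% of all windows were called higher. With the other 4 libraries pooled as the reference this call was lost.

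After propyl gallate 3 windows (2.7%) were called, against 2.22% of all windows. Higher windows were 2 (1.34% of all windows) and 1 was lower (0.88% of all). The SNRPN shelf window was higher by 15.4 points (8.52 to 22.2, adjusted p = 0.000364, Fisher's exact test), and the last window of the SNRPN island was lower, with a difference of -14.5 points (-21.7 to -6.51, adjusted p = 0.00534, Fisher's exact test). The other island windows differed by 2.19 points at the shared start (-0.76 to 5.1) and by -2.03 in the middle (-7.46 to 3.58), so only the last of the 3 was called in the direction opposite to the shelf. With the other 4 libraries pooled as the reference, the shelf window stayed called and the last island window did not. In the ATP10A body, chr15:25835001-25836000 read 73.6% with vehicle (890 of 1209 calls), 80.9% with etoposide, 84.3% with propyl gallate (1044 of 1238), 82.6% with theophylline and 79.9% with 5-aza-dc. The vehicle control was lowest there, and the difference after propyl gallate was 10.7 points (7.5 to 13.9, adjusted p = 2.07e-08, Fisher's exact test), a call that was also lost with that reference.

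After theophylline 3 windows (2.7%) were called, against 2.27% of all windows. The MAGEL2 start was higher, as given above (1.59% of all windows were called higher), and 2 windows were lower (0.681% of all). The SNRPN window chr15:24936001-24937000 differed by -11 points (-18.5 to -4.76, adjusted p = 0.00717, Fisher's exact test) and the ATP10A window chr15:25674001-25675000 by -30.9 points (-44.7 to -15.5, adjusted p = 0.00145, Fisher's exact test). Neither of these lower windows had 100 calls in every library. Among the 89 windows that did, 2 were called, against 1.98% of all windows with such calls. Both were higher: the MAGEL2 start and chr15:24857001-24858000 upstream of SNRPN (14.7 points, adjusted p = 0.00986, Fisher's exact test). Against the other 4 libraries pooled, only the MAGEL2 start was called.

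After 5-aza-dc 6 windows (5.41%) were called, against 3.64% of all windows. Of these, 4 were lower and 2 higher, with 2.76% of all windows called lower and 0.876% called higher. The lower windows were the ATP10A window chr15:25674001-25675000 (-36.3 points, -49.9 to -19.4, adjusted p = 0.000296, Fisher's exact test), the MKRN3 windows (-15.9 and -11.1 points) and the SNRPN shelf window (-10.3 points). The higher windows were chr15:25671001-25672000 past ATP10A (16.9 points, 9.45 to 24, adjusted p = 0.000209, Fisher's exact test) and chr15:25734001-25735000 inside ATP10A (10.8 points, adjusted p = 4.94e-05, Fisher's exact test). The latter falls outside the naming rule and was named after its values had been seen, because it read 87.6% in the vehicle control and 94.2 to 98.3% in the 4 others. Against the other 4 libraries pooled, it and chr15:25674001-25675000 were not called. With the threshold set on an unadjusted p under 0.05 alone, 37 to 39 of the 111 windows passed in each comparison, or 33.3 to 35.1%, against 30.3 to 33.7% of all windows.

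**Figure D4:**
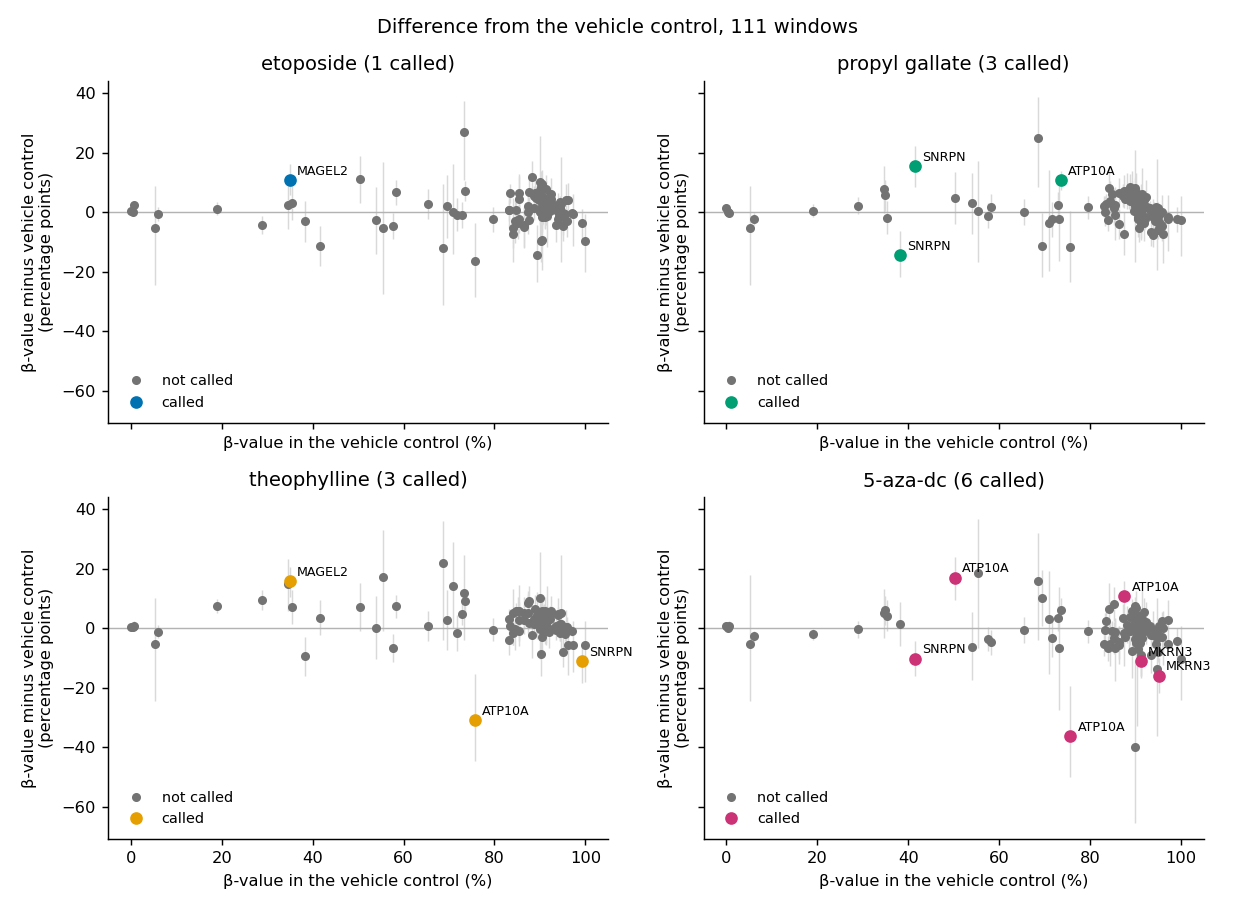
Difference in β-value from the vehicle control (percentage points, with 95% Newcombe interval) against the vehicle control β-value (%) for the 111 windows, 1 panel per chemical, with called windows coloured and labelled by gene. There is 1 called window after etoposide and there are 3 each after propyl gallate and theophylline and 6 after 5-aza-dc, and most other points lie near 0.

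When the calls were divided by 10 to allow for several calls per molecule, 0 of the 111 windows were called in any comparison, and 0 to 0.00139% of all windows were. The unadjusted p of the called windows was then 0.0605 or more in Fisher's exact test. How many independent molecules stand behind the calls was not tested.

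On average over the 111 windows the shifts were small. The mean β-value was 80% with vehicle, 80.7% with etoposide, 81% with propyl gallate, 82.2% with theophylline and 78.6% with 5-aza-dc. The difference from the vehicle control was 0.706 points after etoposide (0.0902 to 1.32), 1.04 after propyl gallate (0.447 to 1.63), 2.21 after theophylline (1.62 to 2.81) and -1.36 after 5-aza-dc (-2.11 to -0.623), with 0.513, 0.566, 0.975 and -1.03 points over all windows in the same order. So the cluster followed the sign of the whole table in each comparison. The counting interval of the theophylline difference lay above the value of the whole table. That interval treats every call as independent and leaves out variation between cultures. It therefore cannot show that the cluster moved more than the whole table. After theophylline 81 of the 111 windows (73%) were higher than in the vehicle control, against 59.9% of all windows. By gene the share was 80% in NDN, 78.6% in SNRPN, 77.8% in MAGEL2, 75% in UBE3A, 72.9% in ATP10A and 53.8% in MKRN3. Higher windows numbered 64 (57.7%) after etoposide and 67 (60.4%) after propyl gallate, against 54.9% and 55.3% of all windows. After 5-aza-dc 66 (59.5%) were lower, against 58.4%.

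Gene by gene, the difference after 5-aza-dc was -2.2 points over UBE3A (-4.95 to 0.558), -2.09 over SNRPN (-3.3 to -0.882), -1.88 over MKRN3 (-3.51 to -0.249), -1.59 over ATP10A (-2.76 to -0.408), -1.41 over NDN (-3.45 to 0.63) and 3.58 over MAGEL2 (-0.577 to 7.74). The interval excluded 0 for SNRPN, MKRN3 and ATP10A, but the ATP10A value was 0.183 points over the 39 windows with at least 100 calls in every library, and the SNRPN value was 2.31 in the only window that the table assigns to SNRPN by symbol. The same measure after theophylline was 2.07 points over ATP10A (1.19 to 2.96) and 1.9 over SNRPN (0.917 to 2.89), and its interval included 0 for MKRN3, NDN and UBE3A.

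Intermediate windows differed from the vehicle control in both directions after 5-aza-dc. Of the 111 windows, 13 had a 5-library mean of 30 to 70%, among them the SNRPN shelf window and chr15:25674001-25675000, both called lower, and chr15:25671001-25672000, called higher. Their mean difference was -0.788 points after 5-aza-dc (-3.5 to 1.93), whereas the 11770 windows of the whole table with such a mean averaged -3 points, a value inside that interval. The 41 such windows of imprinted genes on other chromosomes averaged 0.373 points. The 92 windows of the cluster with a mean above 70% had a mean difference of -1.44 points, against -0.974 over all windows of that level. After theophylline the 13 windows averaged 2.77 points (0.347 to 5.2) and all windows of that level 0.932 points, a value also inside the interval. The 41 windows of imprinted genes on other chromosomes averaged 1.4 points.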

How the data were processed

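RRBS libraries of 1 human iPSC line under 5 conditions were analysed, with 1 library per condition. The authors trimmed reads with Trim Galore 0.5.0, aligned them with Bismark 0.20.0, converted the alignments with SAMtools 1.9 and, in methylKit 1.10.0, added up CpG calls per 1000-base window (versions from the submitters' processing notes, which also name FastQC 0.11.7). They scaled coverage between libraries, dropped windows below 10 calls or of extreme coverage, and kept those covered in all libraries. The table's positions equal RefSeq GRCh38.p14 for MAGEL2, NDN and SNRPN and differ from it at an end of MKRN3 and UBE3A and at both ends of ATP10A. Coordinates are given as deposited. Window sequence was not used here, only RefSeq promoters.

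The deposited values of the vehicle control are counts, whole-number calls left unscaled. What was deposited for each chemical is a score: rounded products of the counts and a factor, which was 1.18 for etoposide, 1.09 for propyl gallate, 1.15 with theophylline and 1.21 with 5-aza-dc. The calls before scaling were worked back and returned at least 99.94% of the coverage values. The deposited β-value, a fraction formed by the authors after scaling, was used as given, in percent.

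A two-sided Fisher's exact test was applied per window to recovered calls, p-values were adjusted over 288391 windows (Benjamini-Hochberg), and a window was called when the adjusted p was below 0.01 and the libraries differed by 10 points or more. It had been planned on deposited counts. Depth sets the precision: 22 of the 111 windows had fewer than 100 calls in at least 1 library. On simulated data with 200 windows changed by 30 points, 196 to 199 were recovered per comparison and 0 unchanged windows were called. The changed windows had at least 100 calls in both libraries, and every call was drawn independently. The simulation therefore checks the code and does not cover shallow windows, smaller changes or several calls per molecule. Mean differences carry an analytic 95% counting interval. The naming rule covers windows at gene starts and islands, up to 4 called windows per chemical, and the largest changes and extreme levels with at least 30 calls. Not every window under this rule is described. Outside it, chr15:23646001-23647000, chr15:25320001-25321000 and chr15:25682001-25683000 were also named, and further exceptions are stated where they occur. Alternatives were deposited calls, other differences and call minimums, calls divided by 10, other window rules, pooled calls, medians and another reference. The members, lists and tests were chosen with earlier results of these data known. Of the lists, 8 of 18 other transcripts of the interval, 9 of 9 neighbours and 20 of 22 imprinted genes elsewhere had windows. Python 3.11.15, numpy 2.4.6, pandas 2.3.3, scipy 1.17.1 and numba 0.67.0 were used.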

Additional observations from a re-analysis of the deposited data

How the results depend on the processing

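No paired analysis was possible because each condition had 1 library. With 1 library and 1 cell line per condition, no difference can be told apart from variation between cultures, and counting intervals are too narrow where several calls come from 1 molecule. Counts of called windows depended on the minimum difference, and with calls divided by 10 they were 0 for each of the 4 chemicals (0 to 0.00139% of all windows). A minimum of 25 points left 0 windows for etoposide (0.191% of all windows) and propyl gallate (0.177%) and 1 each for theophylline (0.175%) and 5-aza-dc (0.309%). With no minimum, etoposide had 11 windows called (10.1% of all windows), propyl gallate 14 (10.3%), theophylline 17 (11%) and 5-aza-dc 11 (14%). After etoposide, the deposited calls gave 4 windows (2.62% of all windows), and the other 4 libraries pooled as reference gave 2 (1.4%), both lower and neither the MAGEL2 start. After theophylline that reference gave 1 (1.32%). After propyl gallate, 0 of the 44 windows assigned by symbol were called (2.22% of all windows).

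The mean difference of the 111 windows kept its sign under every alternative tried, but not its size. After etoposide it was 0.13 points by symbol alone, 0.234 against the other 4 libraries, 1.08 with all calls pooled and 1.12 with at least 100 calls. After propyl gallate it was 0.648 against the other 4 libraries. After 5-aza-dc it was -2.51 points with all calls pooled, -2.35 against the other 4 libraries, -0.709 with at least 100 calls and -0.901 by symbol alone. After theophylline it stayed between 1.71 and 2.48. The share of intermediate windows was 5.41% for 40 to 60%, against 1.86% of all windows. By gene, 3 of the 9 differences whose interval excluded 0 changed sign: SNRPN after 5-aza-dc (2.31 points with windows assigned by symbol alone, 1 window), ATP10A after propyl gallate (-0.457 by symbol alone) and ATP10A after 5-aza-dc (0.183 with at least 100 calls). Of the 15 whose interval included 0, 12 changed sign under at least 1 alternative. They were MKRN3, NDN and UBE3A with etoposide, propyl gallate and theophylline, MAGEL2 with etoposide and 5-aza-dc, and ATP10A with etoposide, and the widest range was that of NDN after theophylline (-6.63 in its 1 window inside the gene, to 2.59). The cause was not tested.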
